A study of Mus musculus with 4 samples.

Results

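The genes described here are 10 members of the Krüppel-like factor (KLF) and specificity protein (SP) family of zinc finger transcription factors: Klf2, Klf3, Klf4, Klf5, Klf6, Klf7, Klf12, Klf15, Sp1 and Sp3. They were chosen by gene symbol, out of 17485 genes in the deposited table, and all 10 were found. Klf9 itself and the relatives Klf10, Klf11, Klf13 and Klf16 were left out by the same rule. Total RNA of mouse heart tissue was sequenced in bulk, in 2 libraries of Klf9 knockout (Klf9 KO) mice and 2 of wild-type (WT) mice. All 4 carry the labels male and 8 weeks of age. No source used here gives the strain, the knockout allele, the hour of collection or any pooling of animals. The labels do not say whether 2 libraries of 1 group are 2 animals, so a p-value here reflects library-to-library spread alone, which may be technical in WT (the Klf9 KO libraries differ in Y-linked genes). The stated purpose was to learn how Klf9 bears on mitochondria in the heart, and the question here is which other family members differed between Klf9 KO and WT hearts.

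KLF and SP proteins share a run of C2H2 zinc fingers near their carboxyl end, with which they bind GC boxes and CACCC boxes, so members can compete for the same sites. What differs is the rest of the protein: KLF2, KLF4, KLF5, KLF6 and KLF7 are mostly known as activators, KLF3 and KLF12 as repressors that recruit the co-repressor CtBP, and SP1 and SP3 as broadly expressed regulators of basal transcription. KLF15 is known in heart and muscle for control of amino acid, glucose and lipid use and for restraint of growth, and KLF2 and KLF4 for the quiescent state of endothelium under flow.

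The stretches of 250 bases upstream of the start of the 4 genes that passed the test in later paragraphs are shown because the factors themselves bind such boxes. They come from RefSeq with the build GRCm38.p6, where 9 of the 10 members had a window (10 windows, since Sp3 had 2 starts), and Klf5 was not among them. The Klf15 stretch is chr6:90462326-90462575 on the plus strand, Klf2 is chr8:72318812-72319061 on the plus strand, Klf7 is chr1:64121390-64121639 on the minus strand and Sp1 is chr15:102406066-102406315 on the plus strand. Capitals mark 4 motifs: the GC box GGGCGG and the CACCC box on either strand, the E-box CACGTG, and the MEF2 consensus.
Klf15: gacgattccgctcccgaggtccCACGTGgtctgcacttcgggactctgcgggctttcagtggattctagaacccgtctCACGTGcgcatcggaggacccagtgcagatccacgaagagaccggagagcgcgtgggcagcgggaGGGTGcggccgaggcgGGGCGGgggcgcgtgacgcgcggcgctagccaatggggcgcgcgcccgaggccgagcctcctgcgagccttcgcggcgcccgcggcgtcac
Klf2: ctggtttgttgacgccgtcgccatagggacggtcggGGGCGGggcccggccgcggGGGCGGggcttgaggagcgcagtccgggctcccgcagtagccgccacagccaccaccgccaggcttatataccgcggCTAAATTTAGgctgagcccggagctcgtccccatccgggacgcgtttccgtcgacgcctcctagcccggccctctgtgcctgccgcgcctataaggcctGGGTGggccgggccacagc
Klf7: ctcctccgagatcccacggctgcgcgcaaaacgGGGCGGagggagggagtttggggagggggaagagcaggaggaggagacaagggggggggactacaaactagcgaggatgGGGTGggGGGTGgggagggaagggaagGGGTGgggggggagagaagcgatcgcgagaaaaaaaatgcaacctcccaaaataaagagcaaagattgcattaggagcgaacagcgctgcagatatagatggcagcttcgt
Sp1: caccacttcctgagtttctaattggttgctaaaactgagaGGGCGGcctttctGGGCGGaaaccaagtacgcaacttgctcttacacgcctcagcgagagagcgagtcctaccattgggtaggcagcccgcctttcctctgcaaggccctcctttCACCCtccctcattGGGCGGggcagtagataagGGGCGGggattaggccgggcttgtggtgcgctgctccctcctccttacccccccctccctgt

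CACGTG, the E-box through which clock factors act, was in 3 of the 10 windows. Of 32851 mouse promoter windows of the same length, 6.02% held it at least once and 0.429% at least 2 times. Klf15 held 2 copies, and Klf4 and Klf6 held 1 each. Klf2 held the only match to the MEF2 consensus among the 10 windows, against 2.92% of all windows. The GC box was in 9 of the 10 windows, all but that of Klf12, against 32.7% of all windows, and the GC share of the 10 windows ran from 48.0% to 78.4% against a median of 52.4%. The CACCC box was in 6 of the 10 windows, against 52.0% of all windows. TATAAA was in 1 of the 10 (Klf12) and AGAACA, a half-site of the glucocorticoid receptor, in 0 of the 10, against 12.4% and 16.1% of all windows. No base of the 4 printed stretches lay in more than 1 of the marked motifs. A match is a description of letters and not a binding site.

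The table holds log2 ratios between pairs of libraries, from which a value per gene and library was recovered. Their unit is not stated and the depth is unknown, so tests compare levels between libraries of 1 gene. Where values are summed over genes, or 1 gene is set against others, levels are taken as recovered and are only a rough guide. Summed over genes, the values came to 409359 and 418974 in Klf9 KO and to 426032 and 489534 in WT. Klf9 was read first and stood at 2.66 and 1.99 in Klf9 KO, against 74.88 and 58.78 in WT (log2 fold change -4.35 ± 0.20, SE; limma, adjusted p = 3.46e-06). Some libraries stood apart from their labels. Klf9 KO replicate 2 had the Y-linked gene Kdm5d at 0.01 and Ddx3y at 0.01, against 4.01 and 7.82 in Klf9 KO replicate 1, so the counts for the members and for the lists tied to them are also given without it. Esr1 stood at 0.09 and 0.03 in Klf9 KO, against 3325.85 and 2725.61 in WT, and Tnni1, a troponin of the heart before birth, at 655.92 and 993.63 in Klf9 KO, against 0.16 and 0.01 in WT. Esr1 and Tnni1 split exactly with the genotype, so what goes with them cannot be told apart from the genotype. The Y-linked genes differed within the Klf9 KO group, and their part in the differences was not tested beyond leaving out each library.

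Of the 10 genes, 9 passed the filter on low values and were tested, and Klf5 did not. With limma on log2(value + 1), 3 were higher in Klf9 KO hearts (Klf2, Klf7 and Sp1), 1 was lower (Klf15) and 5 did not pass an adjusted p of 0.05. Among all 12135 tested genes 27.7% were called higher and 17.0% lower (44.7% in either direction), so the counts of 3 and 1 out of 9 lie near the background and are not a result about the family as a set. The tested members had a median log2 fold change of 0.35, against 0.12 for all tested genes. RLE scaling, which assumes that the typical gene is unchanged, moved these medians to 0.21 and -0.01 and the split of all calls to 2634 higher and 2597 lower, against 3367 higher and 2061 lower without it. It left Klf2, Klf7 and Klf15 called and Sp1 not. Without Klf9 KO replicate 2, and equally without Klf9 KO replicate 1, 2 members were higher (Klf2 and Klf7) and 1 lower (Klf15). Without WT replicate 1 there were 6 higher members, and without WT replicate 2 there were 5. Both Klf9 KO libraries lay above both WT libraries in 6 members and below them in 1 (Klf15), and in 3 the groups overlapped (Klf5, Klf12 and Sp3). Among all tested genes the knockout libraries lay above in 45.2% and below in 30.2%, so that the groups did not overlap in 75.4%.

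**Figure D1:**
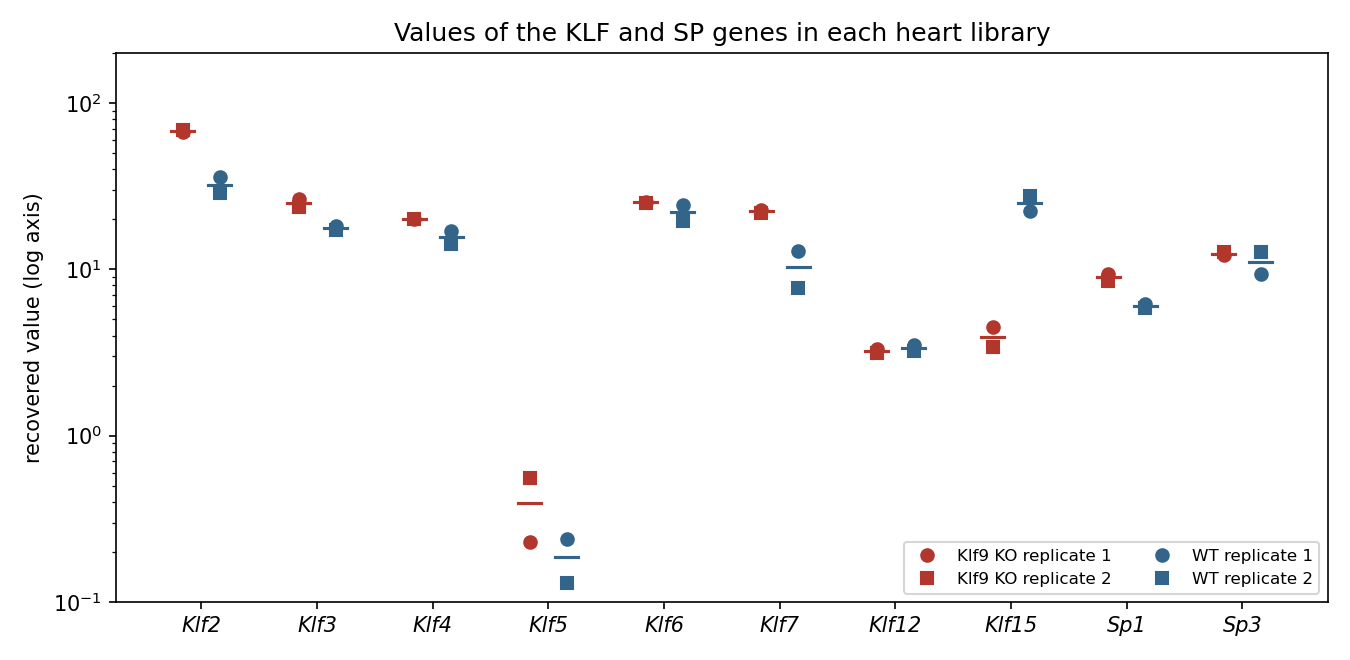
Recovered value (log axis, unit not given) of each of the 10 genes in the Klf9 KO (red) and WT (blue) libraries, with circles for replicate 1, squares for replicate 2 and a bar at each group mean. Klf15 is the gene whose Klf9 KO values, 4.47 and 3.42, sit below both WT values, 22.38 and 27.64.

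Klf15 showed the largest difference of the 10 genes. It stood at 4.47 and 3.42 in Klf9 KO hearts, against 22.38 and 27.64 in WT hearts. Both knockout libraries were far below both wild-type libraries, and the WT mean was 6.34 times the Klf9 KO mean. The 4 pairwise log2 ratios ran from -3.01 to -2.32, and the fitted log2 fold change was -2.40 ± 0.19 (SE, n = 2 per group; 95% interval -2.83 to -1.96; limma, adjusted p = 3.86e-05). It kept the call in all 10 alternatives run, with log2 fold changes of -2.64 to -2.24. KLF15 is known to be induced by glucocorticoids and to follow the clock, and the part of either was not tested. The Klf9 KO libraries also had higher Tnni1 and Igf2, of the fetal and neonatal heart list, and all 10 proliferation markers were higher. The part of these differences in that of Klf15 and of the KLF15 lists was not tested.

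**Figure D2:**
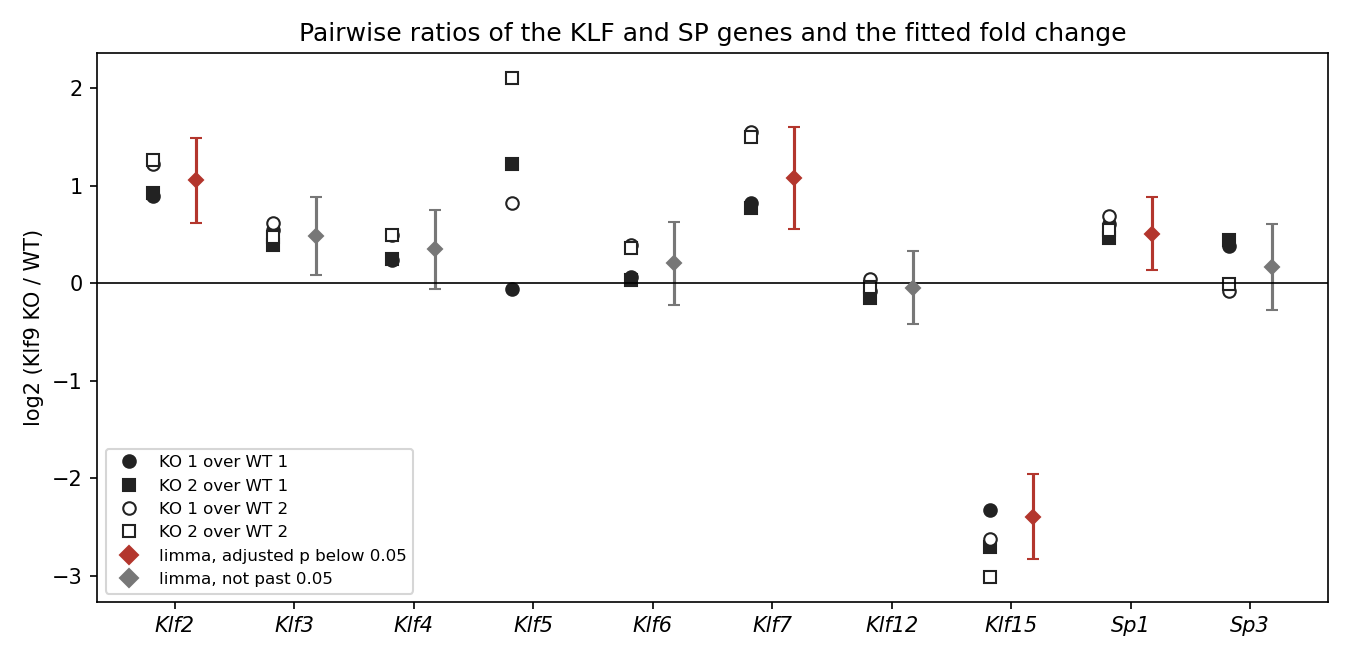
Log2 ratio of Klf9 KO over WT for each of the 4 pairs of libraries (black and open symbols) and the limma log2 fold change with its 95% interval (diamonds, red where adjusted p is below 0.05); Klf5 was not tested. The 4 ratios of Klf15 lie between -3.01 and -2.32, those of Klf2 and Klf7 lie between 0.77 and 1.55, and those of Klf12 scatter around 0.

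Genes listed as raised by KLF15 in mouse heart, muscle, fat or liver were mostly lower in Klf9 KO hearts. Of 15 tested, 10 fell and 0 rose, while 5 missed the threshold, against 17.0% of all tested genes called lower. The median log2 fold change was -0.87, against 0.12 for all tested genes. Prodh, the first enzyme of proline breakdown, stood at 3.10 and 2.24 in Klf9 KO, against 13.17 and 15.36 in WT (log2 fold change -2.06 ± 0.19, SE). Lpl, lipoprotein lipase, stood at 301.93 and 272.46 in Klf9 KO, against 1562.73 and 1596.15 in WT. In both genes the groups were far apart. Those that fell also included Bcat2, Bckdha, Bckdhb and Dbt, which act in the breakdown of branched-chain amino acids. The alanine transaminase Gpt, the glucose transporter Slc2a4, the pyruvate dehydrogenase kinase Pdk4 and the peroxisomal enzyme Ehhadh fell too. The log2 fold changes of all these genes were -1.69 to -0.78. Pdk4 was not called without either Klf9 KO library in turn, Gpt not without Klf9 KO replicate 1 and Ehhadh not without Klf9 KO replicate 2. Kcnip2, a potassium channel subunit known as a KLF15 target in mouse heart, stood at 78.54 and 67.84 in Klf9 KO, against 103.94 and 99.05 in WT, and did not pass (log2 fold change -0.47, limma, adjusted p = 0.0784; 0.0299 after RLE scaling). Also short of the threshold were Acsl1 (-0.30), Slc25a20 (-0.28) and Fabp3 (-0.06), and Slc27a1 had 0.59 (limma, adjusted p = 0.0506). Without Klf9 KO replicate 2 the list had 8 lower genes. It had 11 lower genes and 1 higher without WT replicate 1.

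Genes listed as restrained by KLF15 went both ways. Of 8 tested, 5 rose and 3 fell, against 27.7% of all tested genes called higher and 17.0% called lower. The median log2 fold change was 0.79, against 0.12 for all tested genes. Gata4, a cardiac transcription factor, stood at 41.00 and 46.32 in Klf9 KO, against 22.63 and 17.26 in WT. Myocd, a coactivator of muscle genes, stood at 31.69 and 30.02 in Klf9 KO, against 17.61 and 10.92 in WT. Mef2c, Tgfb1 and Ctgf rose as well, with log2 fold changes of 0.59, 0.99 and 1.25, and none of these was called without Klf9 KO replicate 2. Ctgf was also not called without either WT library in turn. Those that fell were Acta1, skeletal actin, at 45.22 and 70.91 in Klf9 KO against 813.61 and 313.13 in WT, and the natriuretic peptide genes Nppa (log2 fold change -0.92 ± 0.24, SE) and Nppb (-0.69 ± 0.24, SE). Nppa was not called without Klf9 KO replicate 1, and Nppb not without either Klf9 KO library in turn. RLE scaling left 3 higher and 3 lower. The list had 2 higher and 2 lower without Klf9 KO replicate 2 and 4 higher and 1 lower without Klf9 KO replicate 1.

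Klf2 rose in Klf9 KO hearts. It stood at 67.06 and 68.72 in Klf9 KO, against 36.04 and 28.69 in WT. The knockout libraries differed from each other by less than the wild-type libraries did, and the groups did not overlap. The log2 fold change was 1.05 ± 0.19 (SE, n = 2 per group; 95% interval 0.62 to 1.49; limma, adjusted p = 0.00248), and it was called in all 10 alternatives, at 0.90 to 1.21. Klf4, which shares many endothelial targets with KLF2, stood at 20.08 and 20.16 in Klf9 KO, against 16.99 and 14.29 in WT. Both knockout values were above both wild-type values, but the difference did not pass (log2 fold change 0.35 ± 0.18, SE; 95% interval -0.06 to 0.76; limma, adjusted p = 0.145). Without WT replicate 1 Klf4 was called higher (limma, adjusted p = 0.011), and its adjusted p ran from 0.011 to 0.537 over the alternatives.

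In the list of 10 endothelial markers, 4 rose, 0 fell and 6 did not pass, against 27.7% of all tested genes called higher, and the median log2 fold change was 0.24. Emcn lay lower (-0.59) without passing. The summed value of the 10 was 658.9 and 675.41 in Klf9 KO, against 522.96 and 502.7 in WT. The ratio of the mean sums was 1.30, while that of Klf2 was 2.10. The 4 were Cdh5, Tie1, Egfl7 and Robo4. Pecam1 stood at 97.53 and 93.77 in Klf9 KO, against 84.10 and 92.14 in WT, and did not pass. Without either Klf9 KO library in turn 0 of the 10 were called, and after RLE scaling 3 were higher and 1 lower. In bulk tissue, more cells of a type and more RNA per cell cannot be told apart, and the part of endothelial content in the Klf2 difference was not tested. KLF2 is also known from T cells. None of 10 lymphocyte markers passed the filter, and their sum was 4.63 and 3.25 in Klf9 KO, against 2.25 and 1.28 in WT.

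Genes known as induced by KLF2 or KLF4 in endothelial cells were mixed. Of 10 tested, 4 rose and 1 fell, while 5 missed the threshold. Of all tested genes 27.7% were called higher and 17.0% lower. The median log2 fold change was 0.14, against 0.12 for all tested genes. Nos3, the endothelial nitric oxide synthase, stood at 27.32 and 31.07 in Klf9 KO, against 13.59 and 10.35 in WT (log2 fold change 1.23 ± 0.20, SE; limma, adjusted p = 0.00123). Adamts4, a protease, stood at 1.44 and 1.79 in Klf9 KO, against 0.37 and 0.20 in WT. The gap junction gene Gja5 (log2 fold change 0.83) and Adamts1 (0.47; limma, adjusted p = 0.0482) rose too. Adamts1 was not called after either scaling, without the filter, without either Klf9 KO library in turn or with the replicate block, and RLE scaling left 3 higher genes. Thbd, thrombomodulin, the anticoagulant receptor, fell to 14.77 and 12.82 in Klf9 KO, against 27.58 and 29.57 in WT, and was not called without Klf9 KO replicate 2. S1pr1, Aqp1, Slc9a3r2, Tek and Kdr did not pass, at -0.36 to 0.29. Without Klf9 KO replicate 2 the list had 3 higher and 0 lower genes.

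Genes known as restrained by KLF2 or KLF4 were mixed as well. Of 7 tested, 3 fell and 2 rose, against 17.0% of all tested genes called lower and 27.7% called higher. The other 2 missed the threshold, and the median was -0.45, against 0.12 for all tested genes. Ace, angiotensin-converting enzyme, stood at 11.66 and 9.28 in Klf9 KO, against 44.20 and 32.51 in WT. Icam1, an adhesion molecule for leukocytes, stood at 4.21 and 4.51 in Klf9 KO, against 12.27 and 9.67 in WT. The chemokine Ccl2 fell too (log2 fold change -0.70), but not without Klf9 KO replicate 2 or WT replicate 2. Against these, the adhesion molecules Sele (1.95 and 2.51 in Klf9 KO, against 0.60 and 0.27 in WT) and Vcam1 (11.20 and 10.98 in Klf9 KO, against 5.87 and 6.90 in WT) rose, Vcam1 not without either Klf9 KO library in turn. Edn1 and F3 did not pass, at 0.02 and -0.45, and Edn1 was at -0.09 after RLE scaling. The list had 1 higher and 2 lower genes without Klf9 KO replicate 2. Ccl2 and Icam1 are also expressed by macrophages. Of their 8 tested markers 7 fell, against 17.0% of all tested genes called lower. The 9 macrophage markers found summed to 73.42 and 72.53 in Klf9 KO, against 243.84 and 397.61 in WT. The part of macrophage content was not tested.

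A kinase and scaffold arm lies upstream of KLF2 and KLF4. By it flow acts on endothelium through MEK5, ERK5 and MEF2, and the CCM proteins bear on it. The list for this arm had 7 higher genes, 1 lower and 4 that did not pass among 12 tested. It pools genes that promote KLF2 and KLF4 with genes that restrain them, so its count and median give no direction for the arm. Of all tested genes 27.7% were called higher and 17.0% lower. The median log2 fold change of the list was 0.55, against 0.12 for all tested genes. Piezo1, a stretch-gated channel, stood at 21.75 and 25.77 in Klf9 KO, against 11.28 and 7.01 in WT. Mapk7, which encodes ERK5, stood at 10.29 and 10.37 in Klf9 KO, against 4.05 and 3.64 in WT (log2 fold change 1.23 ± 0.16, SE; limma, adjusted p = 0.000513). The MEF2 genes Mef2a, Mef2c and Mef2d rose, with log2 fold changes of 0.68, 0.59 and 0.66, and so did Heg1 (0.56) and Hdac5 (0.54). Krit1, a CCM scaffold, stood at 4.48 and 4.11 in Klf9 KO, against 6.04 and 9.13 in WT (-0.67), and was not called without either Klf9 KO library in turn. The counts depended on the scaling: after RLE scaling 3 rose (Piezo1, Mapk7 and Mef2a). Without either Klf9 KO library in turn 2 rose and 0 fell. The counts were 9 and 2 without WT replicate 1.

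**Figure D3:**
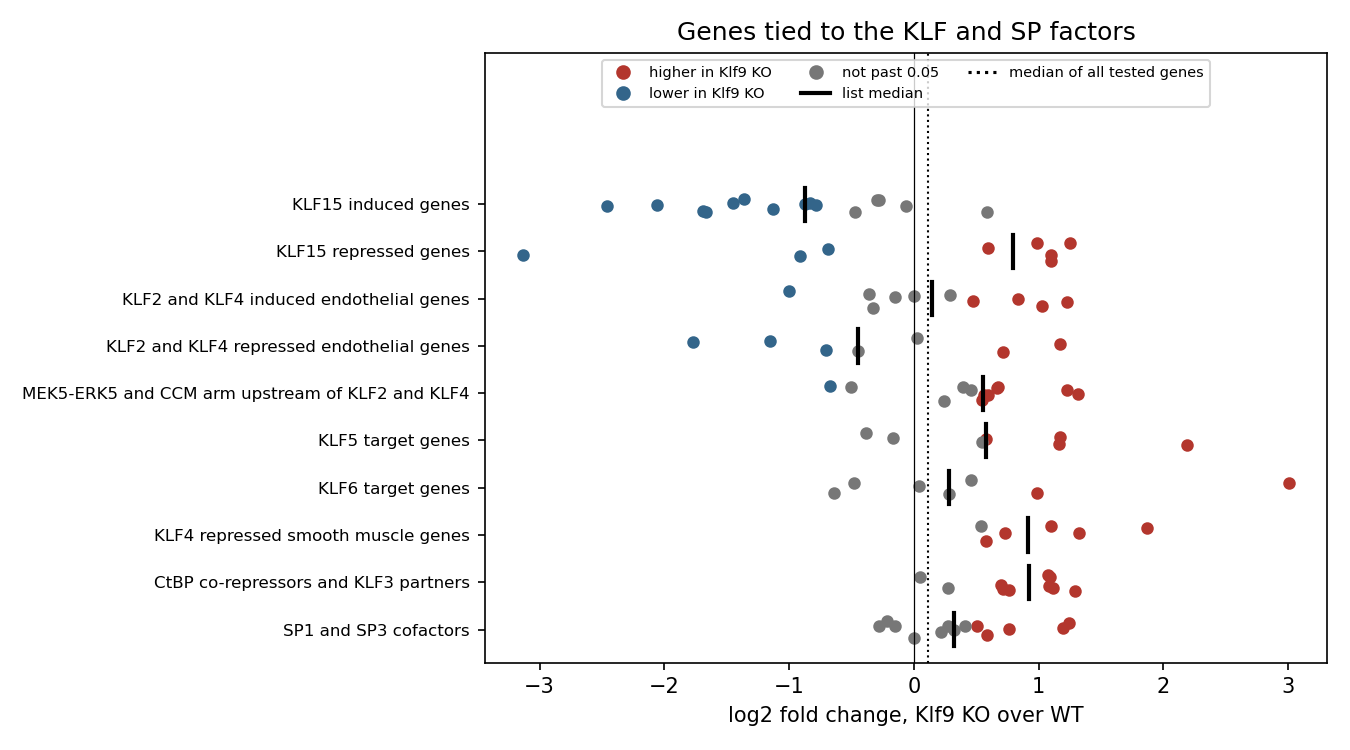
Log2 fold change (Klf9 KO over WT) of each tested gene in the lists tied to KLF and SP factors, red where higher, blue where lower and grey where adjusted p was not below 0.05, with a bar at each list median and a dotted line at the median of all tested genes, 0.12. The KLF15 induced list has its median at -0.87, and the list of CtBP co-repressors at 0.92.

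Klf7, known best for neurons and fat cell development, rose in Klf9 KO hearts. It stood at 22.67 and 21.91 in Klf9 KO, against 12.81 and 7.75 in WT. The groups did not overlap, although the WT libraries differed by a factor of 1.65. The log2 fold change was 1.08 ± 0.23 (SE, n = 2 per group; 95% interval 0.56 to 1.61; limma, adjusted p = 0.00533). It was called in all 10 alternatives, at 0.75 without WT replicate 2 to 1.41 without WT replicate 1. GENCODE M21 annotates antisense or opposite-strand transcripts over Klf7, Klf3, Klf12 and Sp3, and no source used here says whether reads were assigned by strand, so reads of such partners cannot be told apart in these genes.

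Klf6 and Klf5 were not called. Klf6, an early response factor in injured tissue, stood at 25.55 and 25.06 in Klf9 KO, against 24.47 and 19.48 in WT. The knockout values were above both wild-type values, by a margin smaller than the gap between the WT libraries (log2 fold change 0.20 ± 0.19, SE; 95% interval -0.22 to 0.63; limma, adjusted p = 0.405). Without WT replicate 1 it was called (limma, adjusted p = 0.0361, within 0.0361 to 0.813 over the alternatives). Klf5, a growth factor-responsive activator of smooth muscle and heart, was near the bottom of the range at 0.23 and 0.56 in Klf9 KO, against 0.24 and 0.13 in WT. Its groups overlapped, and its pairwise log2 ratios ran from -0.06 to 2.11. Its level was too low for the filter, so it has no test here.

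Genes known as targets of KLF5 had 4 higher, 0 lower and 3 that did not pass among 7 tested. Among all tested genes 27.7% were called higher and 17.0% lower. Myh10, a non-muscle myosin, stood at 41.94 and 48.21 in Klf9 KO, against 10.83 and 7.55 in WT. Igf1, a growth factor, stood at 10.97 and 9.93 in Klf9 KO, against 4.02 and 4.22 in WT. Pdgfa (log2 fold change 1.17) and Tagln (0.57, not after RLE scaling or without either Klf9 KO library in turn) rose too, and 3 were higher and 0 lower without Klf9 KO replicate 2. Without WT replicate 2 there were 4 higher and 1 lower. Among 7 tested genes known as targets of KLF6, 2 rose and 5 did not pass, which lies near the share of all tested genes called higher. Col1a1, a collagen chain, stood at 342.04 and 422.06 in Klf9 KO, against 67.06 and 31.97 in WT, and Tgfb1 at 44.86 and 51.16 in Klf9 KO, against 33.32 and 16.69 in WT. Tgfb1 was not called after RLE scaling or without Klf9 KO replicate 2, which left 1 gene of the list. The list had 3 higher genes without WT replicate 1, and without WT replicate 2 it had 2 lower ones besides 2 higher. Fibroblast markers, which include Col1a1, had 4 higher and 2 lower of 8. Col1a1, Col1a2, Col3a1 and Tcf21 rose, with log2 fold changes of 2.12 to 3.01. Gsn (-2.40) and Dcn (-1.16) fell, Dcn not without the filter or without Klf9 KO replicate 2. The sums of the 8, which pool these opposite changes, were 1118.1 and 1186.9 in Klf9 KO, against 838.64 and 908.22 in WT. The part of fibroblast content was not tested.

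Smooth muscle genes known to be held down by KLF4 had 5 higher genes, 0 lower and 1 that did not pass among 6 tested. Of all tested genes 27.7% were called higher and 17.0% lower. Acta2, smooth muscle actin, stood at 254.55 and 357.97 in Klf9 KO, against 89.69 and 74.62 in WT. Smtn, smoothelin, stood at 137.60 and 141.89 in Klf9 KO, against 67.40 and 45.00 in WT. Myocd, Myh11 and Tagln rose too, and Cnn1 stood at 1.35 and 3.97 in Klf9 KO, against 1.25 and 1.45 in WT. RLE scaling left 3 higher genes, as did leaving out Klf9 KO replicate 2. Acta2 is expressed before birth in heart muscle as well. Of 9 smooth muscle and pericyte markers 5 rose, 1 fell and 3 did not pass. The 1 that fell was Rgs5, at 93.30 and 74.26 in Klf9 KO, against 134.76 and 215.87 in WT. The sum of the 9 was 536.7 and 613.97 in Klf9 KO, against 360.52 and 407.29 in WT. Acta2, which is on both lists, made up much of the Klf9 KO sums, and the part of such cells was not tested.

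The CtBP-binding repressors Klf3 and Klf12 were not called. Klf3 stood at 26.39 and 23.83 in Klf9 KO, against 18.10 and 17.21 in WT. Both knockout libraries lay above both wild-type libraries, and the WT libraries were close to each other. The log2 fold change was 0.48 ± 0.18 (SE; 95% interval 0.09 to 0.88), and the limma adjusted p of 0.0504 fell just short of the threshold, with 0.0488 without robust moderation and a range of 0.00689 to 0.427 over the alternatives. Klf3 was called without either WT library in turn, and not without either Klf9 KO library in turn. Klf12 stood at 3.31 and 3.14 in Klf9 KO, against 3.50 and 3.22 in WT. Its groups overlapped, and the interval of its log2 fold change (-0.04 ± 0.17, SE) ran from -0.42 to 0.33, which leaves room for a change in either direction.

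Of 10 tested genes of the CtBP complex and of KLF3 partners, 8 rose and 0 fell, while 2 missed the threshold. The median log2 fold change was 0.92, and among all tested genes 27.7% were called higher. Fhl3, a LIM protein that binds KLF3, stood at 15.24 and 17.39 in Klf9 KO, against 7.11 and 5.12 in WT. Ehmt1, a histone H3 methyltransferase, stood at 12.95 and 12.89 in Klf9 KO, against 6.31 and 4.96 in WT. Ctbp2 rose (17.44 and 19.65 in Klf9 KO, against 9.34 and 7.16 in WT; log2 fold change 1.09 ± 0.19, SE), whereas its paralog Ctbp1 did not pass (59.79 and 71.44 in Klf9 KO, against 59.09 and 67.30 in WT; 0.05 ± 0.20, SE, and -0.10 after RLE scaling). Kdm1a, Wiz, Hdac1, Ehmt2 and Rcor1 rose, at 0.70 to 1.11. After RLE scaling 7 rose, and without either Klf9 KO library in turn 5 did. All 10 proliferation markers rose as well (9 without Klf9 KO replicate 2), with a summed value of 163.07 and 206.21 in Klf9 KO, against 27.89 and 38.29 in WT, and their part in these differences was not tested.

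Sp1 was called higher, with the smallest change of the called members. It stood at 9.42 and 8.53 in Klf9 KO, against 6.17 and 5.85 in WT. The groups did not overlap, and the 2 libraries within each group lay close together. The log2 fold change was 0.51 ± 0.17 (SE, n = 2 per group; 95% interval 0.13 to 0.88; limma, adjusted p = 0.0344). The call did not hold after RLE scaling (log2 fold change 0.38, limma, adjusted p = 0.0992), after upper quartile scaling (0.46, limma, adjusted p = 0.0566), without the filter (limma, adjusted p = 0.0514), or without Klf9 KO replicate 1 (limma, adjusted p = 0.327) or replicate 2 (limma, adjusted p = 0.203). Sp3, its close relative and competitor for the GC box, stood at 12.14 and 12.69 in Klf9 KO, against 9.33 and 12.80 in WT. The groups overlapped, with WT replicate 2 the highest of the 4 libraries (log2 fold change 0.17 ± 0.19, SE; 95% interval -0.27 to 0.61; limma, adjusted p = 0.51). Sp3 was called without WT replicate 2 (log2 fold change 0.38, limma, adjusted p = 0.0452) and was at -0.04 without WT replicate 1.

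Among 13 tested cofactors of SP1 and SP3, 5 rose and 0 fell, while 8 missed the threshold, and the median was 0.32. That count lies near the 27.7% of all tested genes called higher. Crebbp, the histone acetyltransferase CBP, stood at 11.64 and 10.95 in Klf9 KO, against 5.95 and 2.87 in WT. Hcfc1, a chromatin adaptor, stood at 26.48 and 28.12 in Klf9 KO, against 14.73 and 8.75 in WT. The scaffold genes Sin3a and Sin3b, known as partners of KLF9 and its closest relatives, rose by 0.51 and 0.59 on the log2 scale, and neither was called after RLE scaling, which left 3 higher genes. Without either Klf9 KO library in turn 2 rose. There were 6 higher and 1 lower without WT replicate 1. Ep300 (0.32, a histone acetyltransferase) and Kat2b (-0.22) did not pass.

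**Figure D4:**
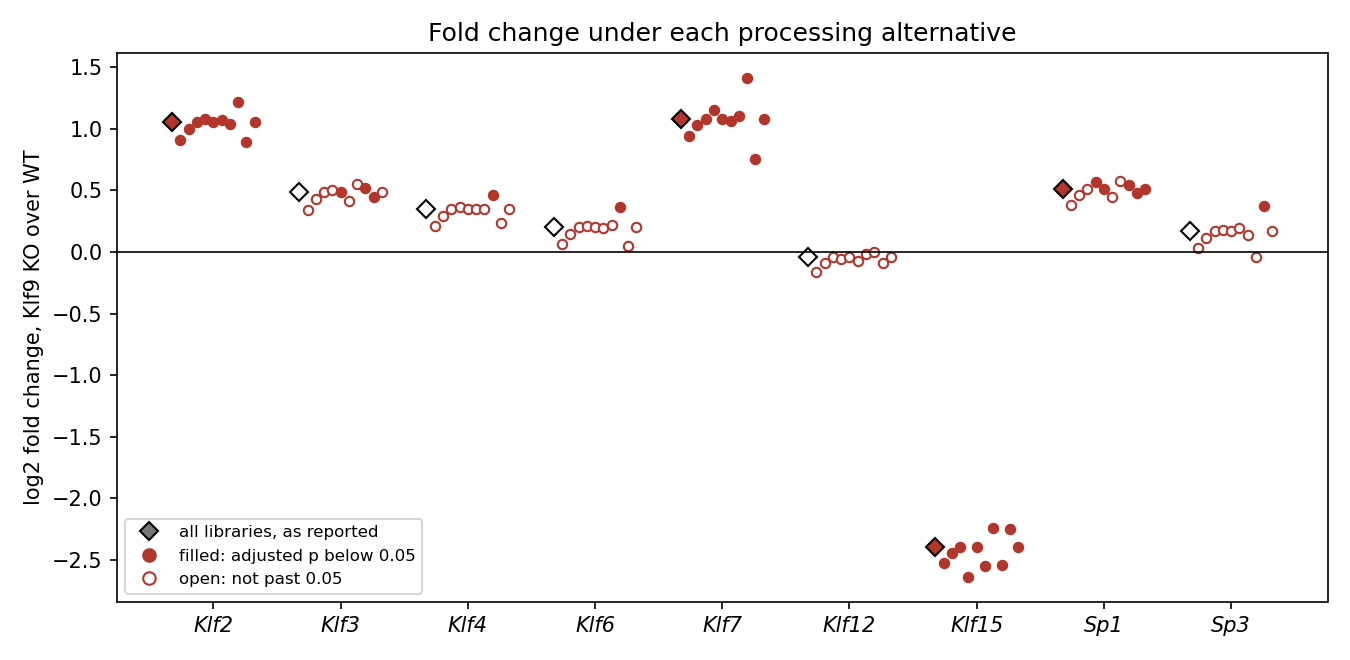
Log2 fold change (Klf9 KO over WT) of the 9 tested members as reported (diamonds) and in 10 alternatives (circles: scalings, filter, pseudocount, variance setting, each library left out, replicate block), filled where adjusted p was below 0.05. Klf2, Klf7 and Klf15 are filled throughout, Sp1 in 5 of 10 alternatives, and Klf12 in 0.

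Of the other family genes, 10 were found in the table and 2 were tested: Sp2 was higher, at 12.46 and 15 in Klf9 KO against 9.71 and 6.73 in WT (log2 fold change 0.69 ± 0.21, SE; limma, adjusted p = 0.0252), and not after RLE scaling (limma, adjusted p = 0.065) or without either Klf9 KO library in turn. Sp4 stood at 1.71 and 1.44 in Klf9 KO, against 1.51 and 1.67 in WT. The other 8, Klf1, Klf8, Klf14, Klf17, Sp5, Sp6, Sp7 and Sp8, were at or below 0.36 in every library.

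The genes with the pattern nearest to Klf2 across the 4 libraries, by Euclidean distance of centred log2(value + 1), were Pdgfrb, Sipa1l2 and Atxn7l3, at distances of 0.01 to 0.03. Pdgfrb, a pericyte receptor, stood at 20.69 and 21.20 in Klf9 KO, against 10.90 and 8.53 in WT. Those nearest to Klf15 were P2ry1, Ahsg and Pxmp2, at distances of 0.10 to 0.13. P2ry1, a purine receptor, stood at 1.15 and 0.77 in Klf9 KO, against 7.90 and 10.98 in WT. With 4 libraries in 2 groups such likeness is a description and little more than a similar fold change.

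The markers of other cell types and states were read in the same way. Among all tested genes 27.7% were called higher and 17.0% lower. The 7 cardiomyocyte markers summed to 18955 and 17579 in Klf9 KO, against 18770 and 19825 in WT, with 1 lower (Tnni3, not without either Klf9 KO library in turn) and 6 not passing. Myh6 made up much of these sums (8725.46 and 7137.67 in Klf9 KO, against 7100.62 and 4788.15 in WT). The part of cardiomyocyte content in the Klf15 difference was not tested. Of 8 markers of the fetal and neonatal heart 6 rose and 2 fell (Acta1 and Nppa). The log2 fold changes of the 6 ran from 1.12 (Myl7) to 9.54 (Tnni1), with Igf2 at 5.56 and Dlk1 at 4.58. Igf2 stood at 310.66 and 398.79 in Klf9 KO, against 8.87 and 4.65 in WT. The sums of the 8 were 1224.2 and 1860.9 in Klf9 KO, against 1105.7 and 547.25 in WT. Acta1 made up much of the WT sums and Tnni1 much of the Klf9 KO sums. All 5 tested epicardial markers rose, Wt1 not without Klf9 KO replicate 2, and Upk3b and Msln not with a pseudocount of 0.1. Of the adipocyte markers only Fabp4, which endothelium also expresses, was above the filter, while Plin1 and Cidec were at or below 0.04 in every library. Sums for macrophage, fibroblast, endothelial and smooth muscle lists are given above.

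**Figure D5:**
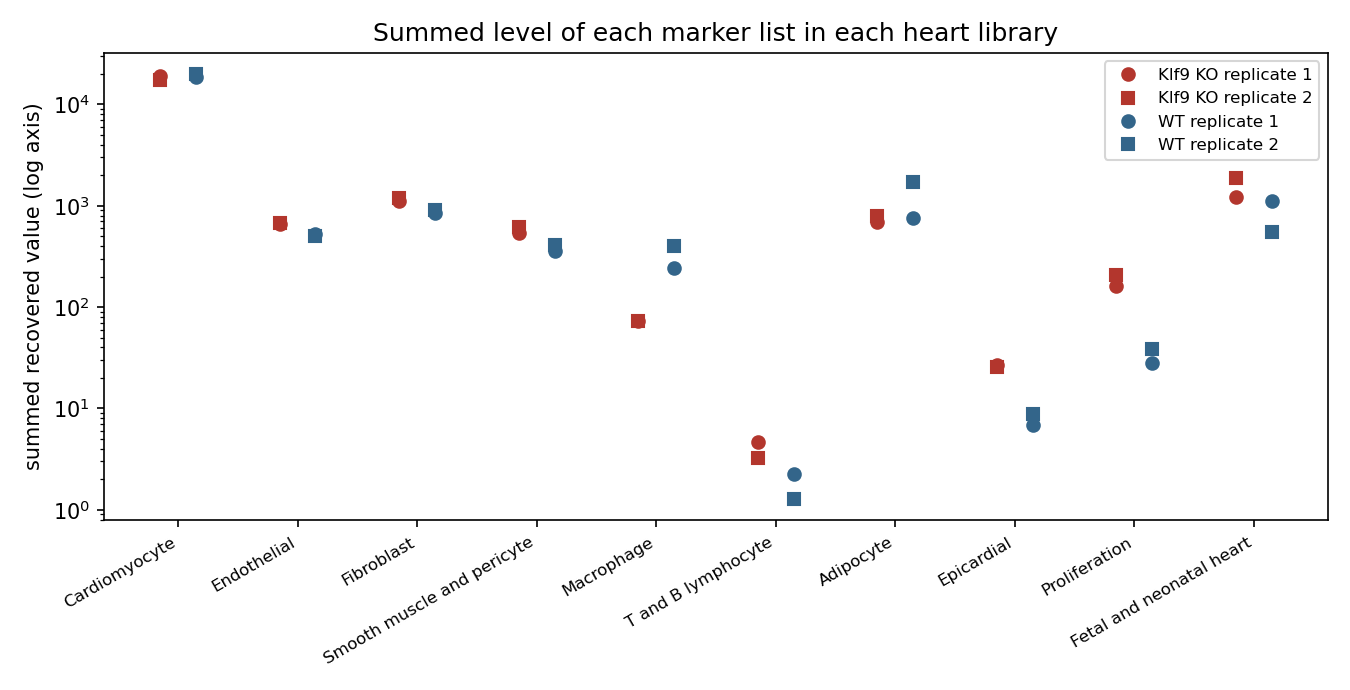
Summed recovered value (log axis, unit not given) of the genes of each marker list in the Klf9 KO (red) and WT (blue) libraries, circles for replicate 1 and squares for replicate 2. Proliferation markers sum to 163.07 and 206.21 in Klf9 KO against 27.89 and 38.29 in WT, macrophage markers to 73.42 and 72.53 in Klf9 KO against 243.84 and 397.61 in WT, and cardiomyocyte markers overlap.

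In the authors' deposited table, which compares the groups with DEGseq, 3 of the 10 genes passed q below 0.001 with a log2 ratio of at least 1 in either direction: Klf15 at -2.54, Klf2 at 1.04 and Klf7 at 1.0. That rule took 23.1% of the 16254 genes with a group ratio. Klf5 had a log2 ratio of 1.04 with a q of 0.099 in the authors' deposited table. Klf3, Klf4 and Klf6, with log2 ratios of 0.47, 0.34 and 0.18 there, had q of 2.83e-28, 8.15e-10 and 1.97e-05 in the authors' deposited table, where they did not pass limma with the spread between libraries as the error.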

How the data were processed

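The authors deposited 1 table of 17485 genes with log2 ratios: 1 for each of the 4 pairs of libraries and 1 for the groups. The headers read WT-vs-KO and do not state which group is the numerator. The ratios were read as knockout over wild type, the direction in which Klf9 is lower in the knockout (deposited group log2 ratio -4.88). The deposited group ratio carries a DEGseq q-value. The sources used here name no aligner, counter, build, unit or depth. The 4 pairwise ratios of a gene were additive to within 9.9e-14, and were resolved by continued fractions into whole numbers read as values with a step of 0.01; all 17485 genes were resolved. Missing ratios (1333 genes) were read as pairs at 0.01, which can stand for 0. As a check on 2000 genes, shifting their ratios by 1e-06 lowered the share resolved to 0%, against 100% unshifted. A factor common to all 4 values is lost, so a level, but not its ratios, can be too low. The step is an assumption.

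limma 3.58.1 (R 4.3.3; trend and robust settings) was fitted to log2(value + 1) of the 12135 genes at 1 or more in 2 or more libraries. Group was the sole term, and p-values were adjusted by Benjamini-Hochberg over these genes; such fold changes understate those of low genes. The table holds no counts, so no count test was run. The fit was tested on simulated data. RLE factors were medians of ratios to the geometric mean and upper quartile factors the upper quartiles, both over the tested genes. Other steps used Python 3.11.15, numpy 2.4.6, pandas 2.3.3 and matplotlib 3.10.9. Alternatives were 2 scalings, no filter, a pseudocount of 0.1, no robust setting, each library left out and a replicate block. The members, gene lists and markers were chosen with earlier results of these data known; lists came from textbook knowledge, and 1 gene of the lists is not reported here and is left out of their counts. Named were all members, Klf9, up to 2 genes of lowest p per direction in each list, and the 3 genes nearest to the member of lowest p in each direction; other list members were named after their values were seen.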

Additional observations from a re-analysis of the deposited data

How the results depend on the processing

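Of 90 refits of single members (9 genes, 10 alternatives), 77 kept direction and side of the threshold. In 5 Sp1 lost its call, in 6 a member gained one (Klf3 in 3, Klf4, Klf6 and Sp3 in 1 each), and 2 turned the direction of a gene that was not called: leaving out 1 library moved the log2 fold change of Klf12 between -0.091 and 0.0014 and that of Sp3 between -0.041 and 0.38. The count of higher members ran from 2 to 6 with 1 library left out and that of lower members was 1 in every alternative. Over all tested genes, leaving out 1 library gave 1859 to 4327 higher and 1100 to 3261 lower genes. Fits with 1 library left out have a group of 1, which is assumed to vary like the other group. The cause of these shifts was not tested. Replicate numbers are shared between the groups, but with 2 pairs they give no pairing: deviations of same-numbered libraries from their group means correlated at r = -0.0355 across 12135 genes. With the replicate block 3514 genes were higher and 2275 lower, and the members called were again 3 higher and 1 lower. Depth is unknown, so counting error could not be given, and low genes such as Klf5 are limited most.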
